A study of Caenorhabditis elegans with 14 samples.

Results

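The N2 strain of Caenorhabditis elegans was compared at reproductive age (t2, 96 hours) and at juvenile age (t1, 40 hours). Its members were the N2 channels of 9 of the 14 arrays in the series, 4 at t2 and 5 at t1, chosen by the strain and age in the labels alone. N2 is the standard laboratory wild type, and each array also carried labelled cDNA of the same age from the Hawaiian wild isolate CB4856. All worms were unmated hermaphrodites reared at 24 degrees on Escherichia coli OP50, with males removed, and each sample was worms pooled from 6 dishes. The t2 worms were moved to dishes with fluorodeoxyuridine (FUDR) soon after the age at which t1 was collected. FUDR stops eggs from hatching by blocking DNA synthesis. The t2 worms were then moved off the drug before collection, whereas the t1 worms had never met it. Age and FUDR therefore cannot be told apart in any of the values below. The labels called t1 late L3, whereas the study's methods called it late L4. N2 was labelled with Cy3 on t2 replicates 1 to 3 and t1 replicates 1 to 3, and with Cy5 on t2 replicate 4 and t1 replicates 4 and 5. Neither the labels nor the methods said whether the dye exchanges used new cultures, so p-values measure the spread between these channels, part of which may be technical.

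Between these ages a hermaphrodite completes larval development, molts to the adult and starts to reproduce. Its germ line first makes a fixed stock of sperm and then switches to oocytes, the intestine secretes yolk lipoproteins (vitellogenins) that oocytes take up, and fertilised eggs surround themselves with a layered shell. Collagens of the cuticle are made in pulses before each molt, and the adult cuticle uses a partly different set. RNA came from whole worms, so fewer cells of a type and less RNA per cell cannot be told apart.

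Levels are given as log2 intensity of 1 array element (a 60-base probe) after background correction and normalization, and changes as t2 minus t1 on the log2 scale with the standard error. The median level of the 7690 elements that were above background in none of the 9 channels was 6.05, which marks the floor of the scale. Where no channel of one age was above background, the change is given as a lower bound ("at least"). Between 45.8% and 56.2% of the elements were above background in a channel, with median spot intensities of 191 to 260 scanner units over local backgrounds of 163 to 183. Correlations across elements (which are not independent replicates) were 0.955 to 0.975 between the t2 channels and 0.809 to 0.852 between channels of different ages. One library stood apart, t1 replicate 3, which correlated with the other t1 channels at 0.917 to 0.96, against 0.963 to 0.974 among those others. In it, summed intensities were lower than in every other t1 channel for vitellogenins, eggshell genes, oocyte regulators, uterine markers, sperm genes and cuticle collagens, and higher for muscle, pharynx, respiratory chain and heat shock genes. Without it the calls described next came to 3815 elements higher and 3114 lower, and list counts that it moved by over 1.5 times are given beside the list.

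Much of the array differed between the ages. Of 22490 worm elements tested, 6764 (30.1%) passed an adjusted p of 0.05 in limma's moderated test with Benjamini-Hochberg adjustment. Of these, 3754 elements (16.7% of those tested), from 3503 genes, were higher at t2, and 3010 (13.4%), from 2772 genes, were lower. The median change of all elements was 0.03. Large falls outnumbered large rises, with 147 elements lower and 28 higher by more than 16-fold. By direction, 55.5% of calls were higher at t2. This split depended on scaling, with 43.5% higher where arrays were not normalized to each other and 68% where each channel was only centred on its median. Among called elements, 96.8% moved the same way in all 4 scanner sessions, each of which held both ages, against 21% of those not called. The sessions divide the same channels that gave the calls, so this contrast follows largely from the calling and is no separate support. The t2 and t1 values of 3452 elements (15.3%) did not overlap with t2 higher, and those of 2852 (12.7%) with t2 lower.

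**Figure D1:**
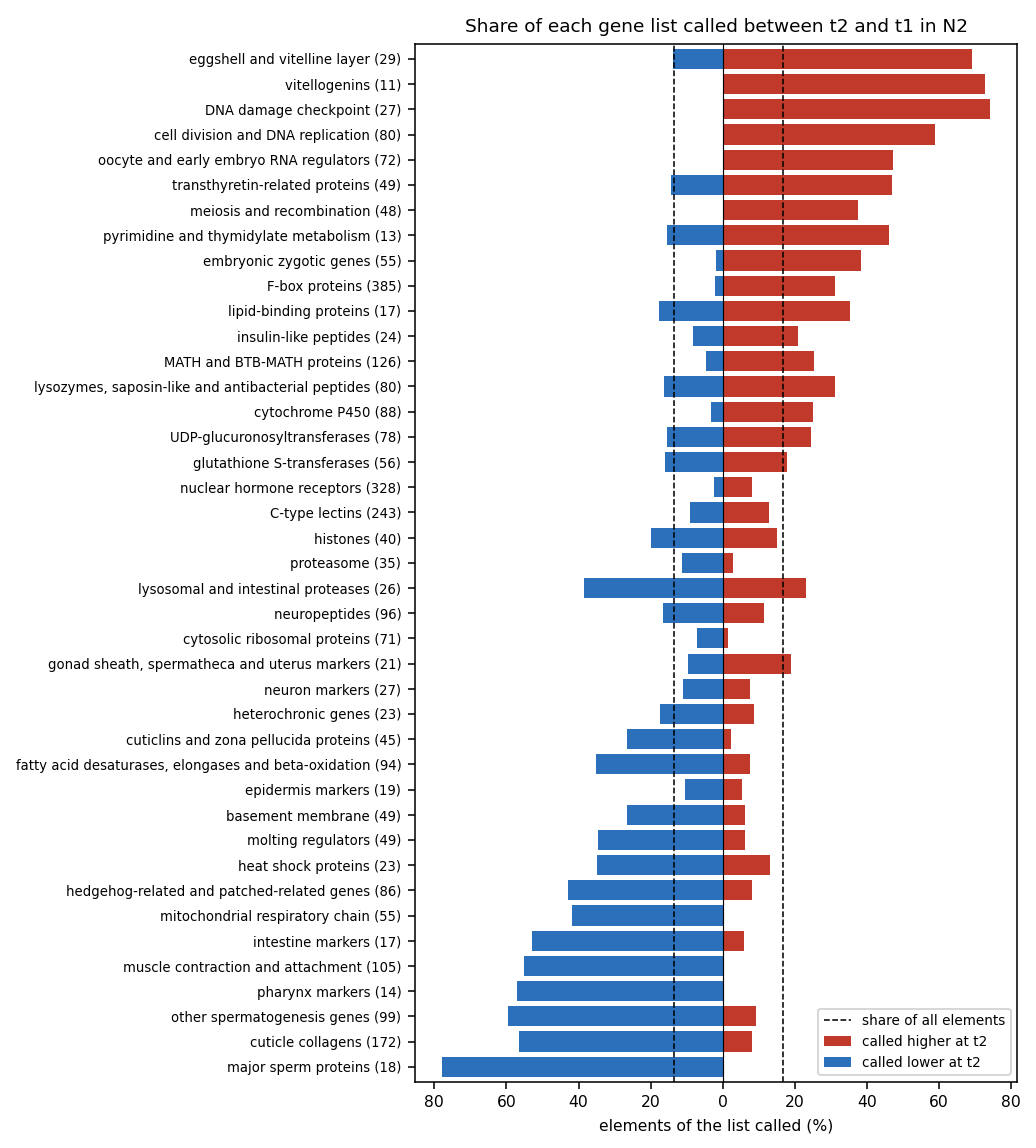
Percent of the elements of each gene list that were called higher at t2 (bars to the right of 0) or lower (bars to the left), with the list on the vertical axis and vertical lines at the share of all elements called, 16.7% and 13.4%. Major sperm proteins reached 77.8% lower, and DNA damage checkpoint genes 74.1% higher.

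Yolk, eggshell and oocyte genes were called higher at t2 far more often than lower. Of 11 vitellogenin elements, from 6 genes, 8 were called higher and 0 lower, with a median change of 1.29. Of 29 elements for the eggshell and vitelline layer, 20 were higher and 4 lower, with a median of 1.77. Among 72 elements of RNA-binding proteins and other maternal factors of oocytes and early embryos, 34 were higher and 0 lower (median 0.62), and 2 were lower without t1 replicate 3. The backgrounds for these counts are the 16.7% and 13.4% above.

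The vitellogenin transcripts were near the top of the scanner's range. An unsaturated element of vit-4 read 14.24, 12.95, 13.85 and 13.69 in the 4 t2 channels, against 12.42, 11.85, 9.41, 11.45 and 10.99 in the 5 t1 channels. The change was 2.46 ± 0.59 (adjusted p = 0.014). That call was lost without t2 replicate 4 (adjusted p = 0.06). For vit-2, all t2 channels were saturated, at 15.47 to 15.63, against 12.75 to 14.56 at t1, a fitted change of 1.88 ± 0.33 (adjusted p = 0.0031) that saturation can hold down. The vit-5 element was likewise saturated at t2, with a fitted change of 1.29 ± 0.35 (adjusted p = 0.024). That call was lost in 2 of the 9 fits that left out 1 library, at most with an adjusted p of 0.14 without t2 replicate 4. A vit-3 element saturated at t2 but not at t1 had a fitted change of 1.51 ± 0.25. vit-6, saturated in 2 of the 4 t2 channels, changed by 1.76 ± 0.36 (adjusted p = 0.0066), a value that saturation can hold down. vit-3, vit-4 and vit-5 are near-identical in sequence, so their elements may read each other's transcripts. Without t2 replicate 4, the list count fell to 5. The receptor that takes yolk into oocytes, rme-2, had 12.38, 11.92, 12.61 and 12.28 at t2, against 10.63, 10.49, 9.39, 10.18 and 9.98 at t1, a change of 2.16 ± 0.27 (adjusted p = 0.00056).

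Among proteins of the shell layers, perm-2 of the vitelline layer, which seals the egg, read 14.92, 14.98, 15.02 and 14.67 at t2 and 12.38, 12.08, 10.60, 11.62 and 11.15 at t1. The lowest t2 channel lay above the highest t1 channel by more than the t2 channels differed, and the change was 3.29 ± 0.34, or 9.77-fold (adjusted p = 0.00022). Its partner perm-4 changed by 2.99 ± 0.36. The proteoglycan gene cpg-3 read 11.83, 11.30, 11.65 and 11.62 at t2, against 9.25, 8.22, 7.16, 8.12 and 7.57 at t1, a change of 3.50 ± 0.38 (adjusted p = 0.00031). For cpg-1 and cpg-2, the chondroitin proteoglycans of the inner shell, the changes were 2.73 ± 0.38 and 2.91 ± 0.28. egg-1, a receptor on the oocyte surface needed for fertilisation, changed by 2.34 ± 0.45 (adjusted p = 0.0049). Another 4 members moved the other way, and are named here after their values were seen, namely cpg-24 (-3.05 ± 0.77), cpg-22 (-2.71 ± 0.31), cpg-19 (-1.45 ± 0.35) and cpg-9 (-1.09 ± 0.21). Without t2 replicate 4, 2 elements of the list were called lower.

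Among regulators of the oocyte-to-embryo transition, nos-2, a Nanos homologue supplied by the mother to the primordial germ cells, read 11.29, 10.19, 11.54 and 10.67 at t2, against 8.17, 7.61, 6.75, 7.19 and 6.69 at t1. The change was 3.57 ± 0.36, or 11.8-fold (adjusted p = 0.0002), with 4 of the t1 channels above background. The paired zinc-finger regulators of oocyte maturation, oma-1 and oma-2, changed by 1.93 ± 0.31 and 3.05 ± 0.32. oma-2 read 12.23, 11.26, 12.54 and 11.78 at t2, against 9.72, 9.0, 8.61, 8.65 and 8.14 at t1. The PUF-family repressor of late oogenesis, puf-5, changed by 3.20 ± 0.39. For mex-6 and pos-1, zinc-finger proteins that pattern the early embryo, the changes were 3.08 ± 0.30 and 3.06 ± 0.48. gld-1, which acts earlier, in meiotic entry, overlapped between the ages. It read 12.39, 11.68, 13.42 and 13.07 at t2 and 11.64, 11.74, 10.79, 11.95 and 11.46 at t1. Its change was 1.19 ± 0.36 (adjusted p = 0.037), and 7 of the 9 leave-one-out fits lost it, with adjusted p up to 0.14 without t2 replicate 4. With the scanner session as a block it was also lost (adjusted p = 0.11). The small heat shock protein of oocytes and embryos, sip-1, changed by 2.76 ± 0.27 (adjusted p = 0.00017, 1 t2 channel saturated).

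**Figure D2:**
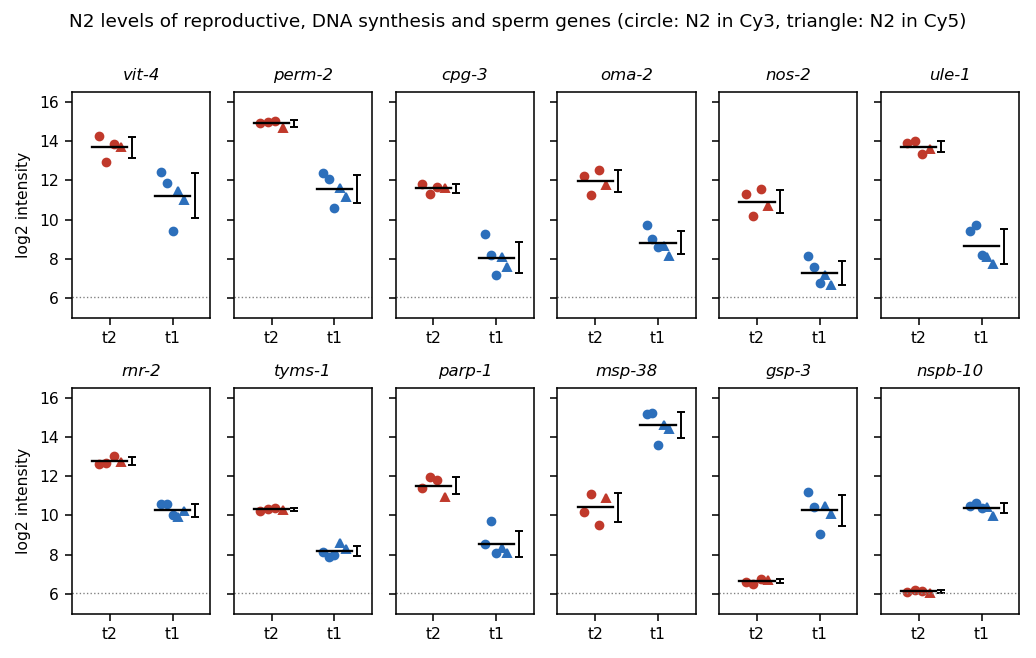
Log2 intensity (vertical axis) of 12 germ line and yolk genes in the 4 t2 and 5 t1 N2 channels (circles, N2 in Cy3, and triangles, N2 in Cy5), with the mean as a bar and the SD as an error bar. The dotted line at 6.05 is the median level of elements above background in no channel. The t2 points lie above all t1 points for the yolk, eggshell, oocyte, uterine and division genes, and below them for msp-38, gsp-3 and nspb-10. For vit-4, cpg-3, nos-2, rnr-2, parp-1 and nspb-10 this separation was a condition of being named.

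ule-1, named for its expression in the uterine lumen, read 13.88, 14.03, 13.36 and 13.60 at t2, against 9.42, 9.71, 8.21, 8.10 and 7.72 at t1. This was a change of 4.97 ± 0.35, or 31.3-fold (adjusted p = 3.6e-05), with 1 t2 channel saturated. The genes ule-5, ule-3 and ule-4, which share its class name, changed by 3.50 ± 0.40, 3.05 ± 0.42 and 2.29 ± 0.44, the last with 2 t2 channels saturated. These 4 genes made up all the higher calls among 21 elements marking the gonad sheath, spermatheca and uterus, a share of 19% beside the array-wide 16.7%, and the median change of the list was -0.06. The summed intensity of that list was 66100 to 98100 at t2 and 10400 to 23400 at t1. Another 2 of its elements were lower, 1 of sth-1 (-1.67 ± 0.50) and 1 of ceh-18 (-0.46 ± 0.11, with the other 2 elements of the gene not called), and without t1 replicate 1 only 1 was. Among 55 elements of genes first transcribed in embryos, 21 were higher and 1 lower (median 0.27), with summed intensities of 9300 to 12800 at t2 and 5310 to 8490 at t1. Most of the largest rises among them were sdz genes, found as targets of the maternal factor SKN-1. sdz-27 read 12.41, 12.42, 11.76 and 12.30 at t2, against 10.23, 9.83, 7.37, 9.30 and 8.46 at t1, a change of 3.16 ± 0.56 (adjusted p = 0.0032). For sdz-33 and sdz-6 no t1 channel was above background, and the rises were at least 4.84-fold and at least 3.24-fold. The lower member was sdz-24 (-2.42 ± 0.34). end-1, the early endoderm gene, read 6.2 on average at t2 and 6.04 at t1 and was not called, and pes-10, also embryonic, was above background in 1 of the t2 channels. How much of these levels came from embryos held in the uterus was not tested.

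Of 80 elements of cell division and DNA replication genes, 47 were higher and 0 lower, with a median of 0.85. Where arrays were not normalized to each other, 30 were higher. rnr-2, the small subunit of ribonucleotide reductase, read 12.62, 12.65, 13.05 and 12.74 at t2, against 9.92 to 10.60 at t1. The spread within each age was far smaller than the change of 2.47 ± 0.17 (adjusted p = 3.3e-05). Its partner, the large subunit rnr-1, changed by 1.17 ± 0.28 (adjusted p = 0.014, and 0.064 without t2 replicate 4). The replication clamp pcn-1 changed by 1.80 ± 0.26. The mitotic cyclins cyb-1, cyb-2.1, cyb-2.2 and cyb-3 changed by 1.45 ± 0.23, 2.47 ± 0.42, 2.23 ± 0.57 and 2.39 ± 0.56. Of these, cyb-2.2 lost its call without t2 replicate 4 (adjusted p = 0.052). t1 replicate 3 was the lowest t1 channel for cyb-3, at 7.57, against 9.26 to 9.85 in the others.

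Among 48 elements of chromosome axis, synapsis and recombination genes, 18 were higher and 0 lower (median 0.53), and 1 was lower without t1 replicate 3. The count of higher elements fell to 9 without t2 replicate 4 and to 4 where arrays were not normalized to each other. spo-11, whose product makes the breaks that start recombination, read 9.80, 10.33, 9.65 and 9.94 at t2 and 8.28, 7.70, 7.99, 7.75 and 8.04 at t1, a change of 1.97 ± 0.18 (adjusted p = 0.00013). mre-11, which processes those breaks, changed by 1.41 ± 0.25, the remodelling ATPase gene pch-2 by 1.39 ± 0.14 and the synaptonemal complex gene syp-3 by 1.17 ± 0.17.

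FUDR is known to bear on the DNA damage response and on thymidylate supply. Only the t2 worms met the drug, so its part in these levels and that of age cannot be told apart. The damage genes were higher at t2 where they were called, as were the division and meiosis genes above with all libraries. Of 27 elements of damage sensors, checkpoint kinases and targets of the p53 homologue, 20 were higher and 0 lower, with a median of 0.92. The count was 8 where arrays were not normalized to each other. The poly(ADP-ribose) polymerase gene parp-1 read 11.38, 11.95, 11.79 and 10.96 at t2, against 8.53, 9.70, 8.08, 8.33 and 8.08 at t1, a change of 2.88 ± 0.31 (adjusted p = 0.00028). polk-1, a translesion polymerase, changed by 1.88 ± 0.19, and parg-2, which removes poly(ADP-ribose), by 1.87 ± 0.39. The p53 homologue cep-1 itself changed by 1.21 ± 0.15 (adjusted p = 0.00064). egl-1, the cell death activator and a known target of cep-1, was above background in all 4 t2 channels (7.21, 7.55, 7.77 and 8.25) and in 0 of the t1 channels (6.02 to 6.25), a rise of at least 2.41-fold (adjusted p = 0.00015).

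Thymidylate synthase, the enzyme that FUDR inhibits, is encoded by tyms-1. It read 10.22, 10.34, 10.39 and 10.27 at t2, against 8.12, 7.90, 8.0, 8.59 and 8.31 at t1. The t2 channels were nearly equal and all above the t1 channels, with a change of 2.16 ± 0.13, or 4.46-fold (adjusted p = 1.5e-05). The cytidine deaminase gene cdd-1 went the other way, with 7.08, 7.27, 7.19 and 7.32 at t2 and 9.31, 10.08, 9.45, 9.94 and 9.83 at t1, a change of -2.47 ± 0.16 (adjusted p = 2.6e-05). The uracil-DNA glycosylase ung-1 changed by 1.18 ± 0.24. Enzymes that could convert the drug, upp-1 (0.45 ± 0.16, adjusted p = 0.066) and umps-1 (-0.41 ± 0.14, adjusted p = 0.056), were not called with all libraries. upp-1 was called without t1 replicate 3 (adjusted p = 0.022), and umps-1 without t2 replicate 4 (adjusted p = 0.012) and without t1 replicate 5 (adjusted p = 0.031). Also not called were dut-1 (0.33 ± 0.42) and cdd-2 (-0.02 ± 0.23). In this list of 13 elements, 6 were higher and 2 lower, the second being pyr-1 (-1.6 ± 0.32), the first enzyme of pyrimidine synthesis.

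Histone genes did not share a direction, with 6 of 40 elements higher (15%) and 8 lower (20%) and a median of 0.00. The array-wide shares were 16.7% and 13.4%. Without t1 replicate 3, 12 were lower, and where arrays were not normalized to each other 2 were higher and 5 lower. The variant htz-1 (H2A.Z) changed by 1.55 ± 0.22, whereas core histone genes his-64 and his-4 changed by -1.89 ± 0.18 and -1.78 ± 0.20. For the H3 variant gene his-70, no t2 channel was above background, and it was lower by at least 5.05-fold.

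Sperm transcripts were lower at t2. Of 18 elements of the major sperm protein family, the cytoskeletal protein by which nematode sperm crawl, 14 were lower and 0 higher, with a median of -3.81, and in all 9 leave-one-out fits the count stayed at 14. msp-38 read 10.18, 11.10, 9.5 and 10.87 at t2, against 15.18, 15.20, 13.61, 14.62 and 14.41 at t1. Even the dimmest t1 channel, replicate 3, was well above the brightest t2 channel, and the change was -4.17 ± 0.43, or 18.0-fold lower (adjusted p = 0.00023), with 1 t1 channel saturated. The other members with the largest falls were msp-142 (-4.63 ± 0.51), msp-49 (-4.42 ± 0.51), msp-45 (-4.28 ± 0.43) and msp-50 (-4.20 ± 0.43). The genes of the family are near-identical, so single elements cannot be assigned to 1 gene with certainty. The summed intensity of the list was 12500 to 30700 at t2 and 152000 to 445000 at t1, where the lowest value was replicate 3.

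Of 99 elements of other spermatogenesis genes, 59 were lower and 9 higher (median -1.25), and 2 were higher where arrays were not normalized to each other. The sperm phosphatase gene gsp-3 read 6.59, 6.52, 6.75 and 6.72 at t2, against 11.20, 10.45, 9.04, 10.50 and 10.08 at t1, a change of -3.60 ± 0.38 (adjusted p = 0.00027) with 2 of the t2 channels above background. spch-3 and spch-1, sperm chromatin proteins, changed by -4.42 ± 0.44 and -2.56 ± 0.52, and spe-11, a sperm-supplied factor the embryo needs, by -2.1 ± 0.34. Members of the nematode-specific peptide families were lower by similar amounts, with nspb-5 at -4.47 ± 0.15 and nspd-2 at -4.42 ± 0.54. nspb-10 was above background in no t2 channel and in all t1 channels and was lower by at least 14.7-fold. The higher calls included fog-1, the regulator of sperm fate (1 of its 2 elements, 1.77 ± 0.37), elements of spe-39 (1.07 ± 0.16 and 0.89 ± 0.28), which also acts outside sperm, and 6 nspc genes, such as nspc-7 (0.92 ± 0.26). These were named after their values were seen.

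**Figure D3:**
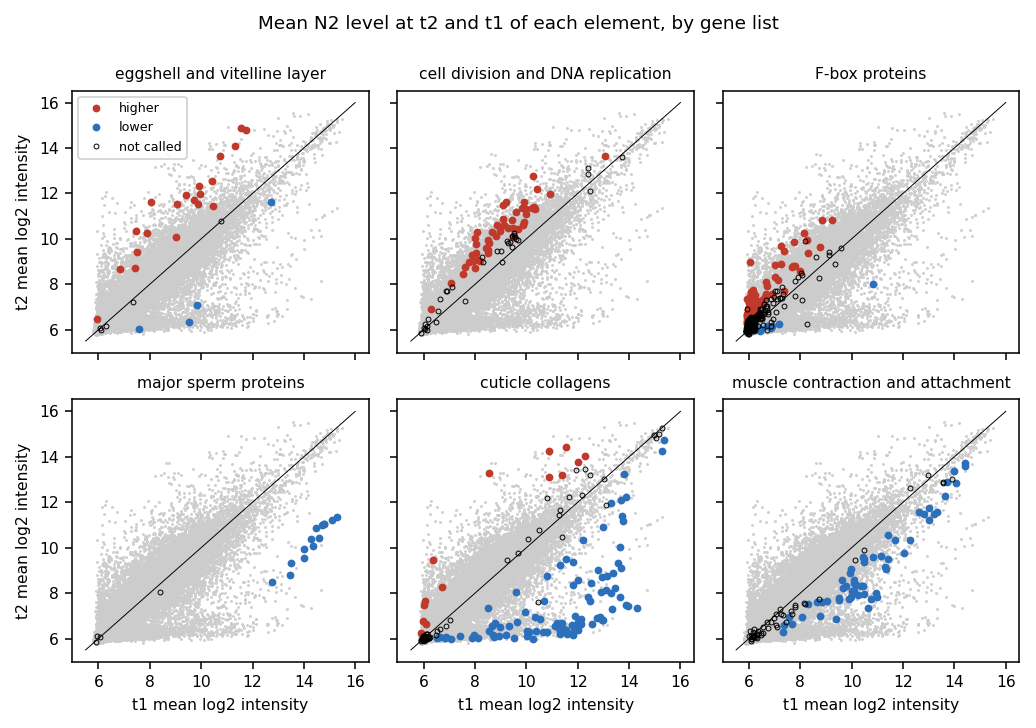
Mean log2 intensity at t2 (vertical axis) against t1 (horizontal axis) for every element (grey) and for the members of 6 gene lists (red, called higher, blue, called lower, open, not called), with the line of equal levels. Most collagens lie far below the line and a few lie above it, muscle genes lie below it by a smaller amount, and the F-box elements called higher lie mostly near the floor at t1.

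Cuticle collagens held most of the largest falls among the named genes. Of 172 elements, 97 were lower and 14 higher, with a median of -1.53 over all of them. Collagens made up most of the 12 named genes with the largest falls. col-12 read 6.68, 8.28, 6.5 and 7.97 at t2, against 14.73, 15.09, 13.68, 14.36 and 13.61 at t1, a change of -6.94 ± 0.48, or 123-fold lower (adjusted p = 3.5e-05). For col-39 the values were 6.93, 8.04, 7.35 and 7.4 at t2 and 14.16, 14.33, 14.48, 13.53 and 13.33 at t1 (-6.62 ± 0.25, 98.5-fold lower). In both genes every t2 channel lay far below every t1 channel, and col-12 was above background in 2 of the t2 channels, col-39 in all 4. Changes between -6.31 and -5.75 were found for col-117, col-13, col-147, col-107, col-175, col-176, col-73 and sqt-1, each above background in 1 to 4 of the t2 channels. The body shape collagens sqt-3, rol-6 and dpy-7 changed by -4.82 ± 0.27, -4.44 ± 0.59 and -3.80 ± 0.23, with dpy-7 above background in 1 t2 channel.

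Some collagens rose. col-101 read 13.72, 13.16, 13.17 and 13.11 at t2, against 9.95, 9.42, 7.17, 8.40 and 7.87 at t1, a change of 4.65 ± 0.52 (adjusted p = 0.00035). Named after their values were seen, col-143 (3.29 ± 0.35), col-45 (2.86 ± 0.63) and col-119 (2.19 ± 0.63) followed, and col-158, above background in no t1 channel, rose too. Without t2 replicate 4, 8 elements were called higher. col-19, known as a collagen switched on at the adult molt, was not called (0.61 ± 0.65, adjusted p = 0.57). It read 12.77, 12.04, 12.16 and 12.05 at t2, against 12.68, 12.59, 9.41, 12.02 and 11.54 at t1, so 4 of the t1 channels were already near the t2 level and replicate 3 was well below them.

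Of 45 elements of cuticlins and zona pellucida proteins, which are other matrix genes of the epidermis, 12 were lower and 1 higher (1 to 2 higher when 1 library was left out, 2 without t1 replicate 3), with a median of -0.17. cut-2 read 6.60, 6.70, 6.2 and 6.0 at t2, against 12.84, 13.59, 12.13, 13.07 and 12.45 at t1 (-6.48 ± 0.30, adjusted p = 4.1e-06), with only 1 t2 channel above background. noah-1 and noah-2, which form the matrix beneath which a new cuticle is built, changed by -3.44 ± 0.33 and -3.81 ± 0.25, with 3 and 1 t2 channels above background. The call of fbn-1 (-2.22 ± 0.59) was lost in 2 of the 9 leave-one-out fits, with adjusted p up to 0.082 without t2 replicate 4, and with the scanner session as a block (adjusted p = 0.056). Among 86 elements of hedgehog-related and patched-related genes, 37 were lower and 7 higher (4 higher without t2 replicate 4), with a median of -0.35. grl-16, a ground-like gene of this family, read 6.68, 7.03, 6.34 and 6.54 at t2, against 12.53, 12.84, 12.19, 13.09 and 12.30 at t1 (-5.94 ± 0.23), with 1 t2 channel above background. grl-5 and wrt-2 changed by -4.57 ± 0.23 and -4.11 ± 0.19, each with 1 t2 channel above background, wrt-10 by -3.32 ± 0.47, and grl-7 and wrt-4, at background in every t2 channel, were at least 18.1-fold and at least 17-fold lower.

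Of the molting genes, 17 of 49 elements were lower and 3 higher (1 higher without t2 replicate 4). mlt-10, a secreted protein made at each molt, read 6.77, 7.09, 7.15 and 6.93 at t2, against 10.87 to 11.65 at t1. The values within each age were tight, and the change was -4.23 ± 0.16, or 18.8-fold lower (adjusted p = 1.6e-06), with 2 t2 channels above background. acn-1, an angiotensin-converting enzyme homologue without catalytic residues, changed by -3.52 ± 0.29, and the protease inhibitor gene mlt-11 and mlt-9 were at least 8.57-fold and at least 12-fold lower. nhr-23, the nuclear receptor that drives the molting cycle, varied within t1 more than between the ages at its brightest element. It read 7.74, 7.31, 8.55 and 8.04 at t2 and 7.70, 7.07, 9.55, 7.15 and 9.05 at t1 (-0.18 ± 0.58, adjusted p = 0.87). Of the 4 nhr-23 elements, 1 other was called higher at t2 and 0 lower. Among heterochronic genes, which time larval fates, 2 of 23 elements were higher (8.7%) and 4 lower (17.4%), beside array-wide shares of 16.7% and 13.4%. Leaving out 1 library gave 1 to 2 higher (1 without t1 replicate 3) and 0 to 4 lower (2 without t1 replicate 3, 0 without t2 replicate 4). lin-29, which directs the switch to adult epidermis, was not called (-1.01 ± 0.37, adjusted p = 0.074). dre-1 changed by -1.63 ± 0.39, lost without t2 replicate 4 (adjusted p = 0.077). lin-42 was lower by at least 1.43-fold and lin-28 higher by at least 1.21-fold, near the floor, with adjusted p up to 0.064 and 0.065 without t2 replicate 4, and lin-28 also lost its call with the scanner session as a block (adjusted p = 0.081). lin-14 was above background in no channel.

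**Figure D4:**
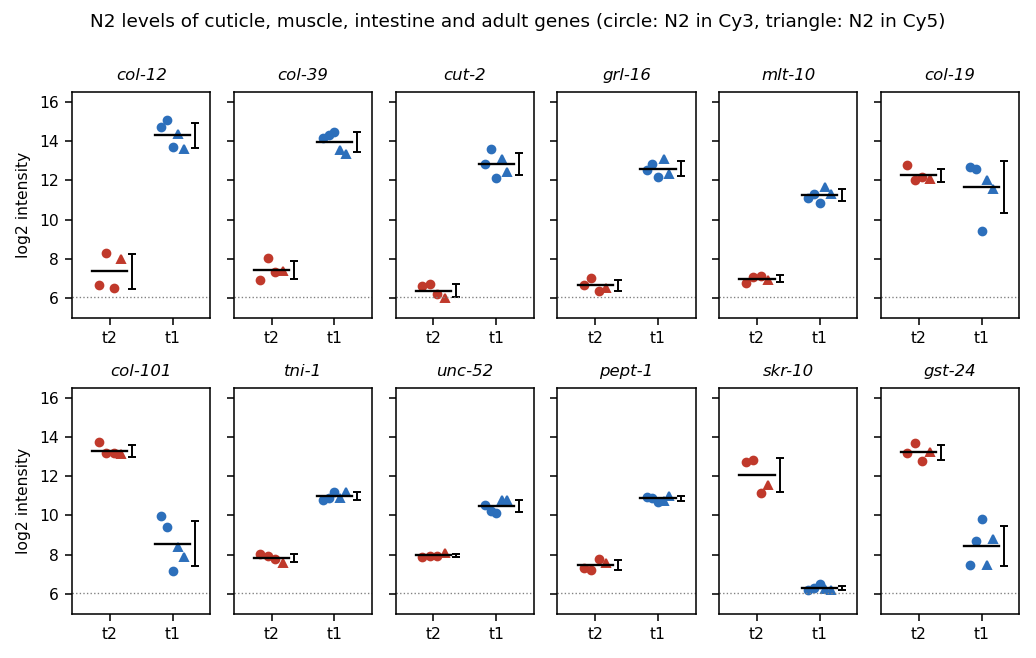
Log2 intensity (vertical axis) of 12 genes of cuticle, muscle, intestine and adult life in the 4 t2 and 5 t1 N2 channels (circles, N2 in Cy3, and triangles, N2 in Cy5), with the mean as a bar and the SD as an error bar, and the dotted line at 6.05 for the floor. For col-19 the ages overlap and t1 replicate 3, at 9.41, is the lowest point. For the other genes shown the t2 and t1 points are separate, which was a condition of being named except for the familiar genes col-39, mlt-10 and tni-1.

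Muscle genes were called in 1 direction. Of 105 elements of sarcomere and muscle attachment genes, 58 were lower and 0 higher, with a median of -0.85. The count was 40 without t2 replicate 4, and 32 where arrays were not normalized to each other. tni-1, a troponin I, read 8.03, 7.93, 7.79 and 7.56 at t2, against 10.80, 10.88, 11.18, 10.90 and 11.19 at t1, a change of -3.17 ± 0.14 (9.03-fold lower, adjusted p = 3.3e-06). The body wall myosin heavy chains unc-54 and myo-3 changed by -1.70 ± 0.34 and -2.85 ± 0.34, and the pharyngeal ones, myo-1 and myo-2, by -3.27 ± 0.37 and -3.01 ± 0.39. act-4, an actin, overlapped between the ages (-0.68 ± 0.19, adjusted p = 0.025) and lost its call in 5 leave-one-out fits, with adjusted p up to 0.092 without t2 replicate 4. The summed intensity of the list was 119000 to 176000 at t2, against 231000 to 283000 in 4 of the t1 channels and 350000 in t1 replicate 3, and without that replicate 57 elements were lower.

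Basement membrane genes moved less evenly, with 13 of 49 elements lower and 3 higher. The perlecan gene unc-52, which links muscle to epidermis, read 7.89, 7.91, 7.95 and 8.09 at t2, against 10.51, 10.24, 10.10, 10.78 and 10.77 at t1 (-2.46 ± 0.12, adjusted p = 4.3e-06). him-4 (hemicentin) changed by -1.83 ± 0.27 and epi-1 (laminin alpha) by -1.69 ± 0.20. The papilin gene mig-6 (-1.56 ± 0.45) lost its call in 6 leave-one-out fits, with adjusted p up to 0.11 without t2 replicate 4, and with the scanner session as a block (adjusted p = 0.066). Of the collagen IV chains, emb-9 changed by -1.06 ± 0.28 (adjusted p = 0.02), and let-2 was not called (-0.41 ± 0.19, adjusted p = 0.15).

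Of 55 elements of respiratory chain genes, 23 were lower and 0 higher (median -0.49). This count was among the least stable, with 13 without t2 replicate 4, 6 with centred channels, 10 with plain background subtraction and 2 where arrays were not normalized to each other. A cytochrome c gene, cyc-2.2, read 6.56, 7.34, 6.42 and 7.27 at t2, against 11.33, 11.29, 9.98, 11.05 and 10.46 at t1 (-3.91 ± 0.34, adjusted p = 0.00011, 2 t2 channels above background), a fall larger than those of the other members named here. The complex II genes sdha-1 and mev-1 changed by -1.30 ± 0.20 and -1.24 ± 0.20, and nduf-9 of complex I by -1.01 ± 0.12. The ATP synthase gene atp-2 changed by -0.99 ± 0.27, a call lost in 4 leave-one-out fits (adjusted p up to 0.066, without t2 replicate 1).

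Ribosomal protein and proteasome genes were mostly not called. Among 71 ribosomal elements, 1 was higher and 5 lower, below the array-wide shares, with a median of -0.04. rpl-3 (-0.70 ± 0.14) and rpl-31 (-1.01 ± 0.16) were lower, rpl-42 was lower by at least 1.75-fold, and rpl-11.1 was higher (0.46 ± 0.11), a call lost without t2 replicate 4 (adjusted p = 0.061). Leaving out 1 library gave 0 to 2 ribosomal elements higher, and with centred channels 1 was lower. Of 35 proteasome elements, 1 was higher (1 to 3 when 1 library was left out, 3 without t2 replicate 2) and 4 lower (1 to 5 when 1 library was left out, and 0 where arrays were not normalized to each other), with a median of -0.01. The regulatory subunit genes rpn-6.2 and rpn-8 changed by -1.27 ± 0.18 and 0.38 ± 0.10, and rpn-8 lost its call with the scanner session as a block (adjusted p = 0.061). The core subunit genes pbs-5 (-0.52 ± 0.15) and pas-6 (-0.48 ± 0.14) lost their calls in 6 and 5 leave-one-out fits, with adjusted p up to 0.096 and 0.14 without t2 replicate 4, and pas-6 also with the session block (adjusted p = 0.064). Without t1 replicate 4, 1 proteasome element was lower.

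Substrate adaptors of ubiquitin ligases were called higher more often than lower. Of 385 F-box elements, from 345 genes, 120 were higher and 8 lower (5 without t2 replicate 4), with a median of 0.23. Only 199 of the elements were above background in any channel, and 45 were higher where arrays were not normalized to each other. fbxc-50 read 9.23, 9.63, 10.11 and 9.83 at t2, against 7.83, 7.85, 6.69, 6.8 and 7.05 at t1 (2.42 ± 0.30, adjusted p = 0.00056). fbxa-59 changed by 2.1 ± 0.25 and fbxa-163 rose by at least 5.87-fold, whereas fbxa-72 changed by -2.82 ± 0.31. fbxa-116 stayed near the floor (0.14 ± 0.08, adjusted p = 0.22). The MATH and BTB-MATH adaptors had 32 of 126 elements higher and 6 lower (3 without t2 replicate 4). In this family bath-27, bath-30, bath-28 and bath-42 changed by 2.26 ± 0.22, 2.23 ± 0.35, 1.98 ± 0.10 and 1.46 ± 0.23.

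Several of the largest rises were of genes outside these lists. They included a pair of Skp1-related genes, whose products bridge F-box proteins to the ubiquitin ligase. The called skr-10 element read 12.74, 12.84, 11.13 and 11.54 at t2 and 6.22 to 6.5 at t1, where it was above background in no channel, so it rose by at least 50.9-fold (adjusted p = 1.8e-05). Its other element was not called. skr-7 rose by at least 45.1-fold, and both its elements were called. These genes are close paralogues, and their elements may read each other's transcripts. dct-7, known as a gene under the control of the DAF-16 transcription factor, read 12.00, 12.15, 10.96 and 12.02 at t2 and 5.87 to 6.34 at t1, at least 42-fold higher (adjusted p = 3.3e-06). dod-23, also named for lying downstream of DAF-16, changed by 4.95 ± 0.42, and cav-1, a caveolin, rose by at least 24.2-fold. try-14, a trypsin-like protease gene, and skpo-1, a peroxidase gene of the epidermis, changed by 4.05 ± 0.48 and 3.95 ± 0.31.

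Detoxification enzymes included large rises and falls of single genes. Cytochrome P450 genes were mostly higher where called, with 22 of 88 elements higher and 3 lower. The 3 lower calls came to 0 without t1 replicate 2 and to 5 without t1 replicate 1. cyp-14A5 read 11.97, 12.30, 11.76 and 12.25 at t2, against 7.37, 7.95, 8.93, 7.77 and 7.66 at t1 (4.11 ± 0.31, adjusted p = 4.8e-05). cyp-31A2, known for its part in making the lipid layer of the eggshell, changed by 1.6 ± 0.23, and cyp-25A1 by 1.43 ± 0.15. The related cyp-31A1, annotated as a pseudogene, changed by 1.63 ± 0.15. Whether its element reads cyp-31A2 transcripts was not tested. Of 56 glutathione S-transferase elements, 10 were higher (17.9%, or 5 elements without t2 replicate 4) and 9 lower (16.1%), near the array-wide 16.7% and 13.4%. gst-24 read 13.16, 13.71, 12.75 and 13.22 at t2, against 7.47, 8.68, 9.82, 7.46 and 8.79 at t1 (4.72 ± 0.49, 26.3-fold, adjusted p = 0.00024), whereas gst-26, gst-27 and gsto-1 changed by -2.44 ± 0.14, -2.34 ± 0.30 and -2.02 ± 0.16. UDP-glucuronosyltransferases had 19 of 78 elements higher (24.4%) and 12 lower (15.4%), the lower share being near the array-wide 13.4%. ugt-31 (2.79 ± 0.22), ugt-43 (2.2 ± 0.25) and ugt-39 (2.05 ± 0.22) were among the rises and ugt-46 (-2.18 ± 0.27) among the falls.

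Secreted antimicrobial and lectin genes were split as well. Of 80 elements of lysozymes, saposin-like proteins and antibacterial peptides, 25 were higher (31.2%) and 13 lower (16.2%), beside array-wide shares of 16.7% and 13.4%. The lysozyme gene lys-7 read 11.71, 12.70, 12.35 and 12.94 at t2, against 9.41, 9.14, 8.66, 9.43 and 9.03 at t1 (3.35 ± 0.25, adjusted p = 4.7e-05). lys-4 moved the other way, with 7.97, 9.09, 7.73 and 8.77 at t2 and 12.93, 12.81, 13.32, 13.08 and 13.33 at t1 (-4.66 ± 0.28, 25.3-fold lower). lys-5 (-4.63 ± 0.45) and fipr-11 (-3.55 ± 0.28) were also lower. Among 243 C-type lectin elements, 31 were higher and 22 lower, near the array-wide shares on a list of which 80 elements were above background in any channel. clec-91 and clec-87 changed by 3.44 ± 0.46 and 3.23 ± 0.18, and clec-222 and clec-266 rose by at least 12.2-fold and at least 9.8-fold. These members rose, whereas the lowest change in the lectin list was -3.18. Its 22 lower calls came to 11 with centred channels and to 11 with dye exchanges averaged.

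Of 17 elements of intestine markers, 9 were lower and 1 higher (median -0.75), and their summed intensity was 17200 to 26100 at t2 and 44700 to 60400 at t1. The peptide transporter gene pept-1 read 7.31, 7.23, 7.79 and 7.57 at t2, against 10.71 to 11 at t1 (-3.38 ± 0.14, 10.4-fold lower, adjusted p = 2.6e-06). The intermediate filament gene ifb-2 changed by -2.54 ± 0.25. The exception was the metallothionein gene mtl-1, with 9.81, 10.25, 7.74 and 10.66 at t2 and 6.10 to 6.87 at t1 (3.35 ± 0.50), with 1 t1 channel above background. elt-2 and ges-1, the defining regulator and esterase of the gut, were above background in all 9 channels and were not called (-0.30 ± 0.26 and -0.48 ± 0.28). Among 26 elements of lysosomal and gut proteases, 10 were lower and 6 higher (23.1%), with a median of -0.02. The members named here, those with the largest qualifying changes, were all falls, whereas the highest change in the protease list was 1.57. The cathepsin B-like genes cpr-5, cpr-4, cpr-1 and cpr-8 changed by -5.14 ± 0.31, -3.66 ± 0.20, -3.45 ± 0.42 and -2.23 ± 0.20. For cpr-5 the t2 channels read 6.89, 7.28, 8.04 and 8.47, against 12.55 to 13.45 at t1.

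Genes of fatty acid synthesis and breakdown were lower more often than higher, with 33 of 94 elements lower and 7 higher (median -0.18), or 21 and 1 where arrays were not normalized to each other. The elongase gene elo-2 changed by -2.40 ± 0.24 and the acyl-CoA dehydrogenase gene acdh-1 by -2.02 ± 0.13, and acdh-6 and acdh-8 were at least 5.78-fold and at least 3.62-fold lower. Fatty acid carriers were divided, with 6 of 17 elements higher (3 without t2 replicate 4) and 3 lower. far-3 (3.18 ± 0.44) and lbp-1 (1.80 ± 0.26) rose, and lbp-6 (-1.81 ± 0.17) and lbp-7 (-1.86 ± 0.34) fell. Of 49 transthyretin-related elements, a secreted nematode family, 23 were higher and 7 lower (median 0.60). ttr-54, ttr-51 and ttr-5 changed by 2.85 ± 0.20, 2.69 ± 0.31 and 2.29 ± 0.21, and ttr-50 rose by at least 14.2-fold.

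Among 24 insulin-like elements, 5 were higher (20.8%) and 2 lower (8.33%, or 1 element without t1 replicate 3 and 1 without t1 replicate 4). The array-wide shares were 16.7% and 13.4%. ins-7, a ligand of the DAF-2 receptor, read 11.49, 12.51, 10.48 and 11.63 at t2, against 8.62, 9.05, 8.16, 8.31 and 7.96 at t1 (3.07 ± 0.39, adjusted p = 0.00067). ins-34 rose by at least 3.04-fold, ins-3 changed by 0.53 ± 0.10, and ins-37 by -1.79 ± 0.47, a call lost in 2 leave-one-out fits (adjusted p up to 0.053, without t2 replicate 3). Of 96 neuropeptide elements, 11 were higher (11.5%) and 16 lower (16.7%, or 9 elements without t2 replicate 4), beside array-wide shares of 16.7% and 13.4%. nlp-24 (-3.13 ± 0.25), nlp-33 (-1.87 ± 0.31), a peptide of the epidermis, and nlp-25 (-1.70 ± 0.44, lost in 3 leave-one-out fits, with adjusted p up to 0.088 without t2 replicate 4) were lower, and nlp-61 (1.80 ± 0.24) was higher. Of 328 nuclear receptor elements, 27 (8.23%) were higher and 8 (2.44%) lower, both below the array-wide shares. These counts were 16 and 4 without t2 replicate 4, and 40 and 8 without t1 replicate 3. nhr-114 changed by -3.44 ± 0.27, sex-1, which reads the number of X chromosomes, by 1.95 ± 0.18 and nhr-244 by 1.46 ± 0.25, and nhr-2, active in early embryos, rose by at least 2.73-fold. Heat shock genes had 3 of 23 elements higher (13%, or 5 elements without t2 replicate 3) and 8 lower (34.8%). Among them, hsp-43 changed by 1.62 ± 0.10, hsp-12.2 by -2.33 ± 0.16 and the mitochondrial chaperonin hsp-60 by -1.61 ± 0.33.

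Marker lists of other tissues were counted in the same way, beside array-wide shares of 16.7% higher and 13.4% lower. With all libraries, the shares of the epidermis and neuron lists were below these in both directions. All 8 of the called pharynx elements, of 14, were lower, and their summed intensity was 1800 to 2930 at t2 and 8170 to 14600 at t1. The gland gene phat-4 changed by -4.45 ± 0.15 and the troponin T gene tnt-4 by -2.55 ± 0.34. Epidermis markers had 1 of 19 elements higher (5.26%) and 2 lower (10.5%), or 0 higher and 6 lower without t1 replicate 3. Leaving out other single libraries also gave 0 to 1 higher. The lower ones were dpy-7 and 1 of 4 let-805 elements (-1.21 ± 0.20). Its regulator elt-3 was not called (-0.02 ± 0.32). Neuron markers had 2 of 27 higher (7.41%, or 1 element without t1 replicate 3). Leaving out other single libraries also gave 1 to 2 higher. Another 3 were lower (11.1%, or 5 elements without t1 replicate 2 and 1 without t2 replicate 1), among them sbt-1 (-0.66 ± 0.13). Both higher ones were of snb-1, with 0.96 ± 0.27 at the element with the larger change. That call was lost in 3 leave-one-out fits (adjusted p up to 0.065, without t1 replicate 1). The summed intensity of the neuron list was 10700 to 16200 at t2 and 9220 to 11900 at t1. The part of a changed tissue balance in the counts above was not tested.

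The same comparison was made in the CB4856 channels of the same arrays, which share spots and scanner sessions with N2. There 5952 elements (26.5%) were called, 3180 higher and 2772 lower at t2. Fitting both strains together, the N2 change and the CB4856 change differed at 177 elements (0.787%), 95 with a more positive change in N2 and 82 with a more negative one. This count was 75 without t2 replicate 4 and 99 without t1 replicate 1. For the lists above, the counts of both strains can be set side by side, with 14 major sperm protein elements lower in N2 and 14 in CB4856, 97 collagen elements lower in N2 and 100 in CB4856, and 47 division elements higher in N2 and 39 in CB4856. Larger gaps stood in other lists, with 8 vitellogenin elements higher in N2 and 3 in CB4856, 18 meiosis elements in N2 and 9 in CB4856, 20 DNA damage elements in N2 and 12 in CB4856, and 120 F-box elements in N2 and 85 in CB4856. These counts were not tested against each other, and the change itself differed between the strains at 0 vitellogenin, 0 meiosis and 1 DNA damage element. At 13 F-box and 11 MATH elements the change differed. The median vitellogenin change ran opposite to the counts, at 1.29 in N2 and 1.68 in CB4856. For the meiosis, DNA damage and F-box lists the medians were 0.53, 0.92 and 0.23 in N2, and 0.39, 0.64 and 0.16 in CB4856. Whether sequence differences between the strains altered hybridisation at single elements was not tested here.

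Among genes with standard names that were measurable in N2, the 12 with the largest differences were picked, after their values were seen. A group of 4 neighbouring transporter genes, pgp-5, pgp-6, pgp-7 and pgp-8, which encode P-glycoproteins, were among them. pgp-8 read 10.19, 10.76, 9.46 and 10.13 in N2 at t2 and 6.09 to 6.56 at t1, a rise of at least 13.1-fold, against a change of 1.62 ± 0.14 in CB4856 (difference 2.28 ± 0.24, adjusted p = 0.00011). Its neighbours showed the reverse order. pgp-5 changed by 0.14 ± 0.33 in N2 and 2.49 ± 0.21 in CB4856 (difference -2.35 ± 0.34, adjusted p = 0.0021), and pgp-6 by -0.84 ± 0.26 in N2 and 1.89 ± 0.29 in CB4856 (difference -2.73 ± 0.35, adjusted p = 0.00069). The pgp-7 difference (-2.36 ± 0.37) was lost without t2 replicate 4 (adjusted p = 0.081). These genes are similar in sequence, so their elements may not be fully specific.

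Larger rises in CB4856 were also found for ugt-29 (1.25 ± 0.23 in N2 and 3.93 ± 0.25 in CB4856) and clc-19, a claudin-like gene (0.60 ± 0.31 in N2 and 3.03 ± 0.39 in CB4856, lost without t2 replicate 4 at an adjusted p of 0.066). clec-66 changed by -0.24 ± 0.32 in N2 and 2.48 ± 0.58 in CB4856, a difference that was lost in 7 of the 9 leave-one-out fits. In 4 genes the fall was larger in N2. tsp-14, a tetraspanin, read 7.11, 7.43, 7.30 and 7.23 in N2 at t2, against 9.42, 9.60, 9.55, 9.53 and 9.47 at t1 (-2.25 ± 0.10), and changed by 0.03 ± 0.13 in CB4856 (difference -2.28 ± 0.13, adjusted p = 1.7e-07). nspe-7, above background in 1 t2 channel of N2, changed by -3.01 ± 0.12 in N2 and -0.70 ± 0.16 in CB4856, sdz-24 by -2.42 ± 0.34 in N2 and 0.05 ± 0.17 in CB4856, and nspd-7 by -2.81 ± 0.53 in N2 and 0.01 ± 0.29 in CB4856, the last lost in 4 leave-one-out fits. clec-147 rose more in N2 (2.71 ± 0.32) than in CB4856 (0.46 ± 0.10).

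**Figure D5:**
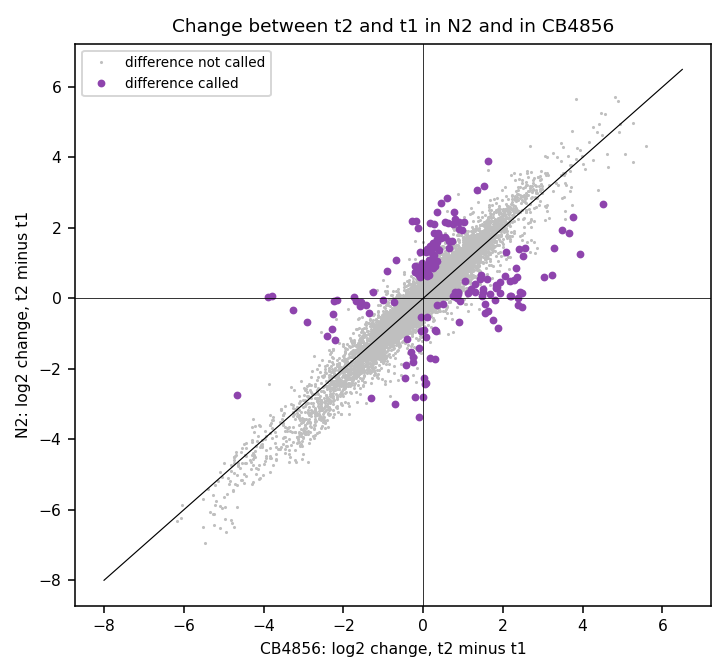
The log2 change from t1 to t2 in N2 (vertical axis) against that in CB4856 (horizontal axis) for every element, with elements whose 2 changes differed (adjusted p under 0.05) in purple and the line of equal change. Both strains were measured on the same arrays. Most points follow the line, and 177 elements are marked as different.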

How the data were processed

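Whole-worm RNA was labelled with Cy3 or Cy5 and hybridised in pairs, N2 with CB4856, to 2-colour 60-base arrays, and read on a PerkinElmer scanner with ScanArray Express. The deposited files give mean spot and median local background intensity per channel and the percent of saturated pixels per spot, neither background corrected nor normalized. The authors' table of log2 ratios between strains was not used, since a ratio does not give the level of 1 strain.

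Background was corrected with normexp (offset 50), followed by loess within arrays with control spots at weight 0 and quantile normalization over the 14 arrays. The 9 N2 channels were fitted in limma 3.58.1 (R 4.3.3) with terms for age and dye, and p-values were adjusted by Benjamini-Hochberg over 22490 worm elements, with no filter on dim ones. An element was above background where its signal exceeded the local background by 2 SDs. Strains were compared in a joint fit with the spot as a random effect (intraspot correlation 0.312). The 41 gene lists and all members were chosen with earlier results of these data known. Named genes were the 12 largest rises and falls, up to 4 called members per list, and a list of familiar genes. The rises, falls and list members had to be above background at the higher age with values not overlapping. Their separation between the ages was therefore fixed by selection. A familiar gene with several elements is given by its brightest. Genes from the largest changes and from the lists are given by the qualifying element with the largest change. Other elements of such genes were not always called. Of 4 vit-4 elements 2 were called, of 3 noah-1 elements 1, and of 3 col-117 elements 1. Gene names came from a RefSeq annotation, with 1077 elements keeping the file's name. The script was tested on simulated data. Precision is limited by how few arrays there are. Of 23232 spots, 742 controls were left out. Alternatives covered background, normalization, filters, dye, blocks and each library left out.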

Additional observations from a re-analysis of the deposited data

Results flagged for a closer look

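In 21 of 402 groups of 4 or 5 channels of the named elements, 1 channel lay far from the rest, which is near the 1 in 20 groups that chance alone marks. Of these, 13 were t2 groups and 8 were t1 groups. At t2, replicate 1 was apart for col-19 (12.77), col-101 (13.72), phat-4 (6.35) and pbs-5 (10.73). Replicate 2 was apart for skpo-1 (11.99), ttr-51 (14.96) and an element of vit-3 (15.11). Replicate 3 was apart for let-805 (8.49), dct-7 (10.96), nspb-5 (6.66) and another element of vit-3 (15.39, saturated as in the other t2 channels). Replicate 4 was apart for bath-27 (9.92) and bath-28 (9.5). At t1, replicate 3 was apart for cyb-3 (7.57), ins-34 (6.38), cav-1 (6.47) and ugt-46 (11.40), replicate 1 for pch-2 (8.63), syp-3 (9.22) and nhr-2 (6.35), and replicate 2 for parp-1 (9.70).

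The change from t1 to t2 differed between N2 and CB4856, in limma's joint fit, for 18 of the elements named. The N2 change minus the CB4856 change was negative for nspd-7 (-2.82), pgp-6 (-2.73), clec-66 (-2.72), ugt-29 (-2.68), sdz-24 (-2.47), clc-19 (-2.44), pgp-7 (-2.36), pgp-5 (-2.35), nspe-7 (-2.31), tsp-14 (-2.28), nlp-25 (-1.88) and parg-2 (-1.77). It was positive for pgp-8 (2.28), clec-147 (2.24), sdz-6 (1.95), fbxa-59 (1.82), bath-27 (1.47) and bath-28 (1.07). Those of parg-2 and nlp-25 lost their calls in most leave-one-out fits, with adjusted p up to 0.19 and 0.31 without t2 replicate 4.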

How the results depend on the processing

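Against 3754 elements higher and 3010 lower at t2, the counts were 1605 higher without normalization between arrays and 1852 lower with channels only centred, a setting that moved the median of all elements to 0.20. They were 1403 and 861 with the 8111 elements of the commonest scanner flag code (4), 884 and 630 with the 4018 of flag code 3 (an alternative chosen after seeing the data), 2260 and 1889 with N2 in Cy3 only, 1927 and 1861 with a 2-fold minimum, and 0 and 3 with the methods' ordinary linear model at their threshold of 8 on the -log10 p scale. The causes were not tested, beyond the fewer elements or channels that some settings hold. Leaving out 1 library gave 2694 to 3815 higher and 2157 to 3114 lower, with the lowest counts without t2 replicate 4, the only t2 channel with N2 in Cy5. The 177 elements with different changes in the strains became 75 to 182 without 1 library, with 75 without t2 replicate 4 and 99 without t1 replicate 1. Over the named genes, 5537 of 5941 results under 31 settings kept their direction and side of the threshold, 384 lost the call, 20 gained it and 0 reversed. Of 2542 list counts, 498 moved by over 1.5 times. Without normalization between arrays, the elements called higher came to 16 for MATH genes, 12 for cytochrome P450, 11 for UDP-glucuronosyltransferases, 2 for glutathione S-transferases, 16 for C-type lectins, 13 for lysozymes and related genes, 12 for embryonic genes, 2 for histones, 2 for other spermatogenesis genes, 1 for fatty acid genes and 6 for nuclear receptors, and those called lower to 21 for fatty acid genes, 6 for basement membrane genes, 4 for neuropeptides and 2 for heat shock genes. Channels with the same replicate number in the sample titles were averaged within each age, whatever their dye. Their deviations from the age mean correlated between the ages at 0.26, 0.073 and 0.12, so the numbers were not taken to pair the samples. With the replicate block, 3778 were higher and 3068 lower, and gld-1 (adjusted p = 0.072), pas-6 (0.057), lin-28 (0.052) and lin-42 (0.05) lost their calls. Many elements lay near background, which limits what can be seen among them.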
